A study of Homo sapiens with 2 samples.

Results

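The nuclear-encoded subunits of the oxidative phosphorylation complexes were compared between L3.6 control cells, which carry a non-targeting shRNA (shCtrl), and L3.6 cells in which an shRNA targets ESE1 (shESE1). They were taken by name as protein-coding genes off the mitochondrial chromosome whose symbols belong to the NDUFA, NDUFB, NDUFC, NDUFS and NDUFV series, the SDH genes, the UQCR genes with *CYC1*, the COX4 to COX8 genes and the ATP5 genes. This gave 90 of the 60612 genes listed, on 22 chromosomes, of which 39 were assigned to complex I, 4 to complex II, 10 to complex III, 17 to complex IV and 20 to complex V. L3.6 is an established human pancreatic ductal adenocarcinoma (PDAC) cell line, and 1 library was sequenced for each condition. Per the methods of the study, both cell populations were transduced with a pLKO-based lentiviral vector and selected in puromycin. The labels call the control untreated, and which of the study's shRNAs the knockdown library carried is not given in the sources used here. With 1 library per condition no difference below has a replicate check, no test was run and no p-value is given.

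Oxidative phosphorylation is carried out in the inner mitochondrial membrane. Complexes I and II pass electrons from NADH and succinate to ubiquinone, complex III passes them on to cytochrome c, complex IV passes them to oxygen, and complex V, the ATP synthase, uses the proton gradient to make ATP. Complexes I, III, IV and V are built from subunits of both the nuclear and the mitochondrial genome, while complex II is encoded in the nucleus alone. ESE1, encoded by *ELF3*, is a transcription factor of the ETS family, whose members bind DNA at a GGAA core.

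Depth was similar, with 56853971 counts in shCtrl and 60786475 in shESE1. *ELF3* was at 20.4 FPKM (fragments scaled to gene length and depth) in shCtrl and 10.7 FPKM in shESE1, a difference in the direction that the knockdown label implies. Of 6 markers of duct epithelium, 5 (*KRT8*, *KRT18*, *KRT19*, *KRT7* and *EPCAM*) were at 100 FPKM or more in both libraries, and *CDH1* was at 16.3 FPKM in shCtrl and 6.95 FPKM in shESE1. Of 10 markers of other cells, 7 had 0 counts in both libraries, and the summed level of the 10 was 5.25 FPKM in shCtrl and 2.41 FPKM in shESE1. Genes of the mitochondrial genome took 12.4% of all counts in shCtrl and 3.79% in shESE1. That difference alone moves every nuclear gene up by 0.13 on the log2 scale in shESE1, because both units are shares of the library total.

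The nuclear subunits were higher in shESE1 as a group. Changes are given as log2 of the ratio of FPKM plus 1, shESE1 over shCtrl, for genes that reached 1 FPKM in either library. Of the 90 genes, 80 reached that level, all of them in both libraries. The median change of the 80 was 0.48, with quartiles of 0.17 and 0.65 and a range from -1.22 to 1.20. The same median over the 12520 genes past the filter was 0.02, with quartiles of -0.31 and 0.34. In all, 73 of the 80 subunits (91.2%) were above 0, against 51.5% of all genes. Changes were mostly below 2-fold. At least 1.5-fold higher were 27 subunits (33.8%), against 12.2% of all genes, and at least 1.5-fold lower were 2, against 11.5%. At least 2-fold higher were *NDUFB2* and *ATP5MD*, 2.50% against 3.14% of all genes, and at least 2-fold lower were *NDUFA13* and *COX7A2L*, 2.50% against 3.26%. At 2-fold the share of subunits was thus near that of all genes, and the group differed from all genes by a shift of many members under 2-fold.

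**Figure D1:**
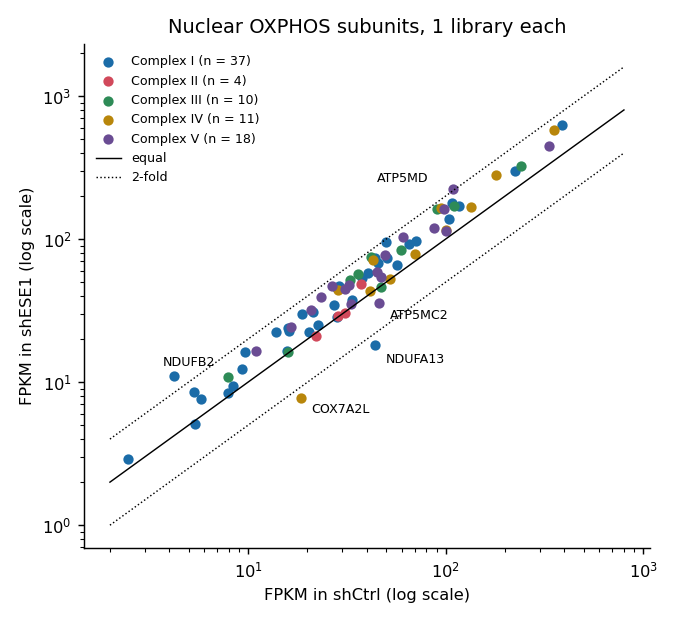
FPKM of the 80 subunits in shESE1 (vertical, log scale) against shCtrl (horizontal, log scale), 1 point per gene, coloured by complex, with lines for equal level and for 2-fold. Most points lie between the line of equal level and the upper 2-fold line, and *NDUFA13* and *COX7A2L* lie below the lower one.

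The summed level of the 80 subunits was 4895 FPKM in shCtrl and 6997 FPKM in shESE1. Counts gave the same picture. The 90 genes held 648394 counts in shCtrl (1.14% of the library) and 937631 in shESE1 (1.54%). For each gene the exact 95% Clopper-Pearson interval of its share of the counts was converted to bounds on its log2 FPKM ratio, with no pseudocount added, and these bounds cover counting error only and not the difference between cultures. They lay above 0 for 69 subunits, below 0 for 4 and held 0 for 7, and the widest interval was 0.22. The log2 ratio by CPM (counts scaled to the library total) had the same sign as that by FPKM in all 80 subunits and was higher by at most 0.029. By CPM the bounds lay above 0 for 72, below 0 for 4 and held 0 for 4, the difference being *SDHD*, *UQCRB* and *COX6C*. The same counts over all genes are not given here, so they do not set the subunits apart from other genes. Every subunit past the filter had 1164 or more counts in each library. At such depth the bounds can leave out 0 for a small change, as for *SDHC* (-0.08). Since the bounds hold no pseudocount, they can lie off the change given for a low gene. The lowest level past the filter was that of *NDUFA5*, 2.48 FPKM in shCtrl and 2.92 FPKM in shESE1, and the gene nearest below the filter was *NDUFC2-KCTD14*, at 0.41 FPKM and 0.55 FPKM. In bulk RNA, fewer cells of a type and less RNA per cell cannot be told apart.

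The complexes did not shift alike on the deposited scale. The median change was 0.49 for complex I (37 genes), 0.00 for complex II (4 genes), 0.54 for complex III (10 genes), 0.31 for complex IV (11 genes) and 0.54 for complex V (18 genes). The summed level went from 1799 to 2577 FPKM for complex I, from 685 to 996 FPKM for complex III, from 1118 to 1607 FPKM for complex IV and from 1174 to 1687 FPKM for complex V. For complex II it went from 119 to 129 FPKM. The gap between complexes II and IV depended on the setting. Their medians were 0.09 and 0.13 after the removal of a length and GC trend described below. Without members that share sequence they were 0.16 (2 genes) and 0.25 (8 genes). Whether the complexes differ from each other could not be tested with 1 library per condition.

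**Figure D2:**
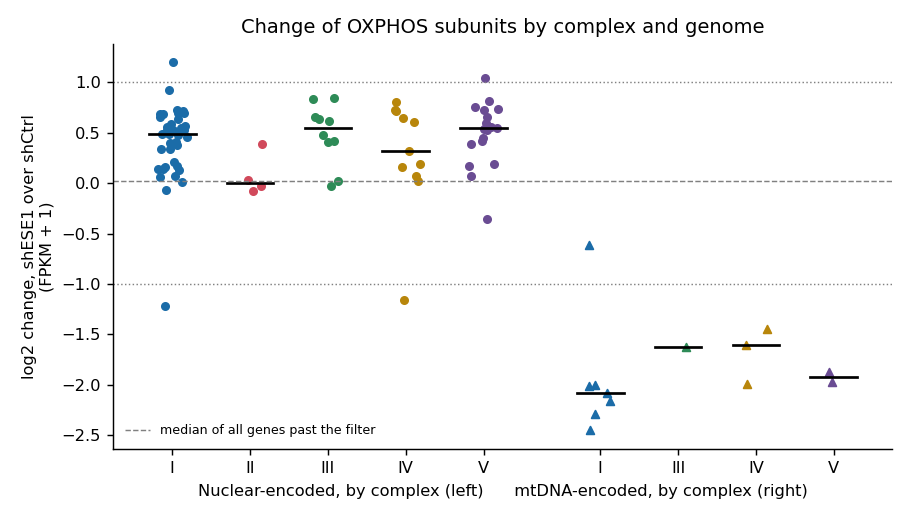
Change of each subunit (vertical, log2 of FPKM plus 1, shESE1 over shCtrl) by complex, for nuclear genes (circles, left) and genes of the mitochondrial genome (triangles, right), with the median of each group as a bar and 2-fold as dotted lines. Nuclear medians lie between 0.00 for complex II and 0.54 for complexes III and V, and every mtDNA-encoded subunit lies below 0.

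Complex I oxidizes NADH on a peripheral arm and pumps protons through a membrane arm. Its nuclear core consists of 7 subunits that carry the flavin, the iron-sulfur clusters or the quinone site. All 7 were above 0 (51.5% among all genes), with a median of 0.34. Their summed level was 124 FPKM in shCtrl and 160 FPKM in shESE1. *NDUFV1*, which holds the flavin that accepts electrons from NADH, was at 20.3 FPKM in shCtrl and 22.5 FPKM in shESE1 (log2 change 0.14). *NDUFV2*, its iron-sulfur partner, was at 37.9 FPKM and 53.6 FPKM (0.49). *NDUFS1*, with the largest share of the clusters, was at 8.41 FPKM and 9.36 FPKM (0.14). The electron input subunits thus covered both small and larger differences. In the part next to the quinone site, *NDUFS3* was at 9.66 FPKM in shCtrl and 16.3 FPKM in shESE1 (0.70). *NDUFS8*, an iron-sulfur subunit, was at 13.9 FPKM and 22.4 FPKM (0.65). *NDUFS7*, which holds the last cluster before ubiquinone, was at 5.78 FPKM and 7.58 FPKM (0.34).

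The 30 accessory subunits of complex I past the filter, grouped by symbol and so with *NDUFA4* among them, had a median of 0.51. Above 0 were 28 of them (93.3%, against 51.5% of all genes). *NDUFS5*, an accessory subunit on the intermembrane side, had the highest level of all complex I genes, 390 FPKM in shCtrl and 627 FPKM in shESE1, a change of 0.68. *NDUFA4*, which carries a complex I name but was later assigned to complex IV, was at 49.7 FPKM and 94.9 FPKM, a change of 0.92. *NDUFB2*, a small accessory subunit of the membrane arm, had the largest increase of the 80. It was at 4.22 FPKM in shCtrl and 11.0 FPKM in shESE1, from 1269 and 3584 counts, a change of 1.20 with an interval of 1.28 to 1.47 without the pseudocount. *NDUFB2* (ENSG00000090266, chr7:140690777-140722790, plus strand of GRCh38) overlaps *ADCK2* on the same strand, with no 100-base word of transcript sequence in common. Below 0, apart from *NDUFA13* described next, was only *NDUFV3*, an accessory subunit of the NADH-binding part, at 5.37 FPKM and 5.08 FPKM (-0.07), and its interval held 0. *NDUFA10* was at 7.95 FPKM and 8.34 FPKM (0.06), and *NDUFB5* was at 15.8 FPKM and 16.6 FPKM (0.07). Except for *NDUFA13*, the other accessory subunits lay between these values and 0.73, the change of *NDUFC2* (43.8 FPKM in shCtrl and 73.3 FPKM in shESE1). *NDUFAB1*, the mitochondrial acyl carrier protein and also a complex I subunit, falls outside the naming rule and was at 50.7 FPKM and 86.7 FPKM (0.76).

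*NDUFA13*, also known as GRIM-19, is an accessory subunit where the peripheral and membrane arms meet, and it was the lowest of all 80. Its level was 43.8 FPKM in shCtrl and 18.2 FPKM in shESE1, from 7984 and 3625 counts, a change of -1.22 with an interval of -1.32 to -1.21 without the pseudocount. The direction depended on whether the counts of an overlapping readthrough gene were added. *NDUFA13* (ENSG00000186010, chr19:19515736-19528198, plus strand) shares 28.6% of its transcript sequence with the readthrough gene *AC011448* (ENSG00000258674, chr19:19516227-19536076, same strand). *AC011448* had 11 counts in shCtrl and 6321 counts in shESE1. The counts of both genes together were 7995 in shCtrl and 9946 in shESE1, a CPM log2 ratio of 0.22 with an interval of 0.18 to 0.26. The direction of *NDUFA13* therefore turned when the readthrough gene was counted with it. Counts on this locus can be split either way by the counting program, and the values do not show whether the readthrough transcript itself differed.

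The other readthrough genes had fewer counts. *UQCR11*, a small subunit of complex III, had 5196 counts in shCtrl and 8903 in shESE1, and its readthrough gene with *MBD3*, *AC005943*, had 0 and 522. With both summed the CPM log2 ratio of *UQCR11* was 0.76. *AL133352*, a gene overlapping *NDUFB8*, had 120 counts in shCtrl and 329 in shESE1, and *AC010323*, overlapping *NDUFA7*, had 236 and 213. Of the 80 subunits, 30 overlapped another gene on the same strand, and 5 of these (*NDUFA9*, *NDUFA13*, *NDUFV2*, *NDUFA7* and *NDUFB8*) had 20% or more of their transcript sequence in common with another gene. Without the 30 the median change of the remaining 50 was 0.41, and *COX7A2L* was the only gene left past 2-fold.

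**Figure D3:**
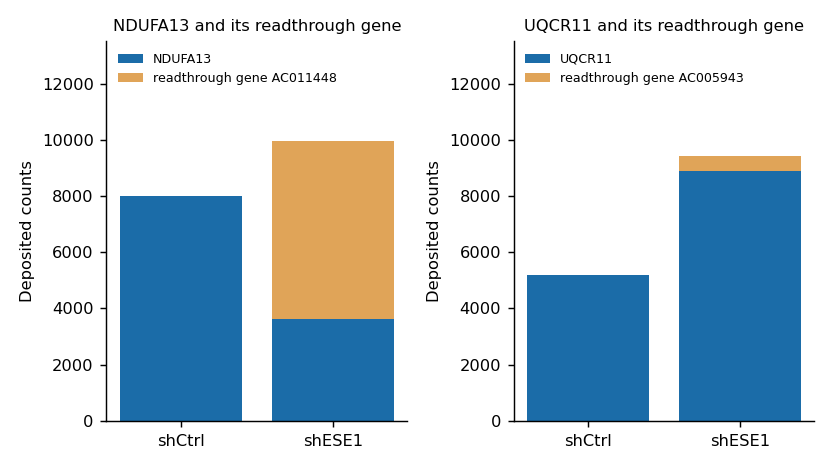
Deposited counts (vertical) of *NDUFA13* and *UQCR11* in shCtrl and shESE1, stacked with the counts of their readthrough genes *AC011448* and *AC005943*. In shESE1 the readthrough gene holds 6321 of the 9946 counts at the *NDUFA13* locus and 522 of the 9425 counts at the *UQCR11* locus.

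Complex II, succinate dehydrogenase, links the tricarboxylic acid cycle to the respiratory chain. *SDHA*, the flavoprotein that oxidizes succinate, was at 30.9 FPKM in shCtrl and 30.3 FPKM in shESE1 (-0.03). *SDHC* and *SDHD* anchor the enzyme in the membrane. *SDHC* was at 22.2 FPKM and 21.0 FPKM (-0.08), and *SDHD* was at 28.4 FPKM and 29.1 FPKM (0.04). *SDHB*, the iron-sulfur subunit, was the only gene of the 4 with a larger difference, at 37.1 FPKM and 48.9 FPKM (0.39, interval 0.35 to 0.45 without the pseudocount). The interval of *SDHA* held 0, and that of *SDHD* held 0 on the FPKM scale but not by CPM.

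Complex III was higher in 9 of the 10 genes grouped with it by symbol (90%, against 51.5% of all genes). The 10 include *UQCRHL*, a copy of *UQCRH*. By at least 1.5-fold 5 of the 10 were higher (50%, against 12.2% of all genes). *CYC1*, the cytochrome c1 that hands electrons to cytochrome c, was at 111 FPKM in shCtrl and 170 FPKM in shESE1 (0.61). *UQCRFS1*, the Rieske iron-sulfur protein, was at 32.8 FPKM and 52.0 FPKM (0.65). The core proteins, which face the matrix and carry no redox group, differed from each other. *UQCRC1* was at 59.8 FPKM and 83.6 FPKM (0.48), whereas *UQCRC2* was at 47.0 FPKM and 46.1 FPKM (-0.03). Among the small subunits, *UQCR10* was at 90.7 FPKM in shCtrl and 163 FPKM in shESE1, and *UQCRQ* was at 41.7 FPKM and 75.6 FPKM, both with a change of 0.84. *UQCRB*, known as a ubiquinone-binding protein, had 13597 counts and 14998 counts (0.02). *UQCRH*, the hinge protein, had the highest level of the complex, 242 FPKM and 323 FPKM (0.41). *UQCRHL*, an intronless copy of *UQCRH*, was at 7.93 FPKM and 10.9 FPKM (0.41), and reads of the 2 genes may be mixed.

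Complex IV, cytochrome c oxidase, has its catalytic centres on mtDNA-encoded subunits, and the nuclear subunits surround them. *COX8A* had the highest level, 355 FPKM in shCtrl and 581 FPKM in shESE1 (0.71). *COX6B1*, on the cytochrome c side, was at 94.6 FPKM and 165 FPKM, with the largest increase of the complex (0.80). *COX7A2* was at 43.0 FPKM and 71.5 FPKM (0.72), and *COX6A1* was at 180 FPKM and 281 FPKM (0.64). Other subunits of the complex differed less. *COX4I1* was at 41.6 FPKM in shCtrl and 43.5 FPKM in shESE1 (0.07). *COX5A* was at 134 FPKM and 167 FPKM (0.31), and *COX5B* was at 101 FPKM and 115 FPKM (0.19). *COX7C* was at 70.4 FPKM and 78.5 FPKM (0.16). *COX6C* was at 52.1 FPKM and 52.8 FPKM (0.02), and its interval held 0 on the FPKM scale but not by CPM.

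*COX7A2L* was the exception in complex IV. It encodes COX7RP, a relative of COX7A2 that joins complexes III and IV in a supercomplex. Its level was 18.5 FPKM in shCtrl and 7.70 FPKM in shESE1, from 6968 and 3167 counts, a change of -1.16 with an interval of -1.32 to -1.20 without the pseudocount. *COX7A2L* (ENSG00000115944, chr2:42333546-42425088, minus strand) overlapped no other gene on its strand and shared no 100-base word with another gene, so the check made at *NDUFA13* gave no partner here. *COX7A2* and *COX7A2L* thus differed in opposite directions between the 2 libraries.

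Tissue-restricted isoforms were at or near the limit of detection. *COX4I2*, *COX6A2*, *COX7A1*, *COX7B2* and *COX8C*, forms known from lung, muscle, heart or testis, had 0 counts in both libraries, as did *ATP5MGL*. A count of 0 allows up to 3 counts, or 0.053 CPM in shCtrl and 0.049 CPM in shESE1. *COX6B2*, a testis form, had 28 counts in shCtrl and 30 in shESE1. *NDUFA4L2*, a paralog of *NDUFA4*, had 97 counts in shCtrl, at 0.50 FPKM, and 0 counts in shESE1. Against a floor of 3 counts in that library it was at least 34.6-fold lower, at a level under the filter in both. The readthrough genes *NDUFC2-KCTD14*, with 23 and 34 counts, and *ATP5MF-PTCD1*, with 10 and 3 counts, complete the 10 genes under the filter.

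Complex V makes ATP in its F1 head, which is turned by a ring of c subunits in the membrane and held by a peripheral stalk. The 5 F1 genes were all above 0 (51.5% among all genes), with a median of 0.45. *ATP5F1B*, the catalytic beta subunit, had the highest counts of all 90 genes, 50588 in shCtrl and 73497 in shESE1, at 336 FPKM and 448 FPKM (0.41). *ATP5F1A*, its alpha partner, was at 33.3 FPKM and 35.1 FPKM (0.07). The gamma subunit *ATP5F1C*, the central shaft, was at 87.2 FPKM in shCtrl and 119 FPKM in shESE1 (0.45), and *ATP5F1D* (11.0 FPKM and 16.5 FPKM) and *ATP5F1E* (32.4 FPKM and 48.0 FPKM) both changed by 0.55.

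The c subunit is encoded by 3 genes whose mature proteins are the same and whose import sequences differ. *ATP5MC1* was at 20.8 FPKM in shCtrl and 32.1 FPKM in shESE1 (0.60), and *ATP5MC3* was at 23.3 FPKM and 39.3 FPKM (0.73). *ATP5MC2* was at 45.9 FPKM and 35.8 FPKM, a change of -0.35 with an interval of -0.40 to -0.32 without the pseudocount, and it was the only complex V gene below 0. The order of the 3 genes thus turned, with *ATP5MC2* the highest in shCtrl and *ATP5MC3* the highest in shESE1, and their summed level was 90.1 FPKM and 107 FPKM. *ATP5MC2* overlaps a processed pseudogene of 0 and 8 counts.

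In the peripheral stalk, *ATP5PO*, which holds the F1 head, was at 26.5 FPKM in shCtrl and 47.4 FPKM in shESE1 (0.81). *ATP5PB* was at 101 FPKM and 114 FPKM (0.17), and *ATP5PD* was at 47.3 FPKM and 54.2 FPKM (0.19). The small membrane subunits, some of which link ATP synthases into dimers, were all higher. *ATP5MPL*, *ATP5MG*, *ATP5ME* and *ATP5MF* changed by 0.54, 0.66, 0.73 and 0.75. *ATP5MD*, also known as DAPIT, had the largest increase of the complex. It was at 109 FPKM in shCtrl and 225 FPKM in shESE1, from 6779 and 15240 counts, a change of 1.04 with an interval of 1.00 to 1.09 without the pseudocount. *ATP5MD* (ENSG00000173915, chr10:103389041-103396492, minus strand) hosts the microRNA gene *MIR1307*, which had 5 and 1 counts. *ATP5IF1*, the inhibitor that blocks ATP hydrolysis, was at 45.1 FPKM and 59.2 FPKM (0.39).

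Promoters were read for the subunits because ESE1 is an ETS factor and because ETS factors, NRF1 and YY1 are known regulators of respiratory genes. The RefSeq table (GRCh38.p14) held 71 of the 90 genes, each with 250 bases before and 50 after every listed start, 61 with a single start and 10 with up to 4. An ETS-type motif, CCGGAAG on either strand, was present in 21 of the 71 (29.6%), against 12.2% of all 27305 genes in the table and 24.3% of the 8776 genes past the filter. The NRF1 motif GCATGCGC was present in 14 (19.7%), against 3.68% and 6.78%. The YY1 motif AAGATGGC was present in 12 (16.9%), against 3.52% and 7.08%. Among the 65 subunits past the filter, the shares were 32.3% for the ETS-type letters, 21.5% for NRF1 and 18.5% for YY1. All 3 lay above the shares of the genes past the filter, by the smallest ratio for the ETS-type letters. At least 1 of the 3 motifs was present in 37 of the 71. By complex, the ETS-type motif was present in 5 of 31 genes of complex I, 2 of 3 of complex II, 3 of 7 of complex III, 5 of 10 of complex IV and 6 of 14 of complex V past the filter. Subunits with the ETS-type motif had a median change of 0.52 (21 genes), and those without it 0.48 (44 genes). For NRF1 the medians were 0.42 with (14 genes) and 0.49 without (51 genes), and for YY1 0.46 with (12 genes) and 0.49 without (53 genes). A match is a description of letters and not a binding site.

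The 200 bases before the first listed start are shown for 6 genes on which the description turns, 5' to 3', with matches to the 3 motifs in capitals. *ATP5MD* (chr10:103396476-103396675 on the minus strand, RefSeq symbol *ATP5MK*) had the largest increase in complex V, and the ETS-type matches in this stretch overlap each other on opposite strands, while another lies across the start and is not shown. *COX8A* (chr11:63974420-63974619 on the plus strand) and *UQCRH* (chr1:46303498-46303697 on the plus strand) had the highest levels of complexes IV and III. *SDHB* (chr1:17054033-17054232 on the minus strand) was the complex II gene with the larger difference and holds an NRF1 match and an ETS-type match.
ATP5MD: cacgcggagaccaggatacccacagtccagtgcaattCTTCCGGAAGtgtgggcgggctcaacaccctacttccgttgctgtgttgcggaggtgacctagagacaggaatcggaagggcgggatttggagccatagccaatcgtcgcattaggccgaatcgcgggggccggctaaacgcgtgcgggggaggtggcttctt
COX8A: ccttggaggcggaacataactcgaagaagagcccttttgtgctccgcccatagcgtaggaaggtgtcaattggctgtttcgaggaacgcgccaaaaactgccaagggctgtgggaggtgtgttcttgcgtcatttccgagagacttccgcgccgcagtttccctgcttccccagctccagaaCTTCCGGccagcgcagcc
UQCRH: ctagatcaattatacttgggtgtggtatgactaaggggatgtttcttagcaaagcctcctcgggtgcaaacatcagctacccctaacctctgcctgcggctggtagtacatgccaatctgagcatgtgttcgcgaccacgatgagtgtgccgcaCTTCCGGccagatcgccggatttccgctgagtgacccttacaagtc
SDHB: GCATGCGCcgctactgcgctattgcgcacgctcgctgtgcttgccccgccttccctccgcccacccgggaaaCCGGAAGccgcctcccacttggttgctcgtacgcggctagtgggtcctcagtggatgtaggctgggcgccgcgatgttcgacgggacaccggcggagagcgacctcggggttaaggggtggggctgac
*NDUFB2* (chr7:140696508-140696707 on the plus strand), with the largest increase, and *COX7A2L* (chr2:42361218-42361417 on the minus strand), with the largest decrease in complex IV, hold none of the 3 motifs and appear in lower case throughout.
NDUFB2: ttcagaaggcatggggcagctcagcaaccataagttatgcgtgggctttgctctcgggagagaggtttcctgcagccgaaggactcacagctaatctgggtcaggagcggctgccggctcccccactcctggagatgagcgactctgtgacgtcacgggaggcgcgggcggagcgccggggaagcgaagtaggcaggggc
COX7A2L: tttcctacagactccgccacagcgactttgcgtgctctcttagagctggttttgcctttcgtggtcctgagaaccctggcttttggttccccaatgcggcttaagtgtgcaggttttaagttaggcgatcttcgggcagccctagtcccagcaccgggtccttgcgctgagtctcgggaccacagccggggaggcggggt

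The nuclear subunits as a group and the mtDNA-encoded subunits differed in opposite directions. All 13 mtDNA-encoded subunits were lower in shESE1, against 6069 of the 12520 genes past the filter. By at least 2-fold 12 of the 13 were lower (92.3%, against 3.26% of all genes), and the median of the 13 was -1.99. Their medians were -2.08 in complex I (7 genes), -1.62 in complex III (1 gene), -1.60 in complex IV (3 genes) and -1.92 in complex V (2 genes). *MT-ND4*, a proton-pumping subunit of complex I, was at 13121 FPKM in shCtrl and 2398 FPKM in shESE1 (-2.45). *MT-ND3* differed least, from 4616 FPKM to 3011 FPKM (-0.62). With the mitochondrial genes left out of the library totals, the median of the nuclear subunits was 0.35 and that of all genes -0.09. On that scale 64 of the 80 subunits were above 0 and 69 were above the median of all genes. The share of all genes above 0 on that scale is not given here. *NDUFB2* was the only subunit at least 2-fold higher, where the share of all genes was 2.34%. Complex II had a median of -0.13. The part of the mitochondrial share in the nuclear values was not tested beyond this rescaling.

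The 78 nuclear genes for mitochondrial ribosomal proteins, which translate the mtDNA-encoded subunits, had a median of 0.45. Above 0 were 68 of them (87.2%, against 51.5% of all genes). Of the 78, 20 were at least 1.5-fold higher (25.6%, against 12.2% of all genes). Assembly factors, which build the complexes without staying in them, had a median of 0.29 over 53 genes, with 45 above 0 (51.5% among all genes) and none past 2-fold (3.14% higher and 3.26% lower among all genes). By complex the medians were 0.30 for complex I (18 genes), 0.33 for complex II (4 genes), 0.41 for complex III (6 genes), 0.20 for complex IV (22 genes) and 0.45 for complex V (3 genes). *COA3*, which stabilizes newly made MT-CO1, was at 18.2 FPKM in shCtrl and 35.3 FPKM in shESE1 (0.92). *SCO2*, which delivers copper to complex IV, was at 3.12 FPKM and 6.36 FPKM (0.84), and *NDUFAF8* was at 14.1 FPKM and 24.8 FPKM (0.78). *COX20*, a chaperone of MT-CO2, was the only assembly factor at least 1.5-fold lower, at 6.61 FPKM and 3.63 FPKM (-0.72). The list for the mobile electron carriers held 11 genes, *CYCS* and the COQ and PDSS genes of ubiquinone synthesis, with a median of 0.08. *CYCS*, cytochrome c itself, was at 49.5 FPKM in shCtrl and 108 FPKM in shESE1 (1.11).

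The subunits are short transcripts, and short genes were higher in shESE1 over the whole table. The median longest transcript was 1583 bases for the 80 subunits (496 to 13566) and 3189 bases for the 12425 genes with a transcript. Across genes, which are not independent replicates, the Spearman correlation of change with length was -0.38 among the subunits and -0.23 among all genes. With GC content it was 0.12 and 0.23. The trend of all genes with length and GC had a median of 0.13 at the subunits, and after removing it, an alternative chosen after seeing the data, their median was 0.32 and that of all genes 0.02. Transcript length therefore moved with the result, and its part in it was not tested beyond this adjustment. Levels between subunits also depend on the gene model. *ATP5F1A* had 24440 counts and *ATP5F1B* 50588 in shCtrl, yet FPKM of 33.3 and 336, because the length behind a gene's FPKM ranged from 0.50 to 14.9 kilobases over the subunits.

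**Figure D4:**
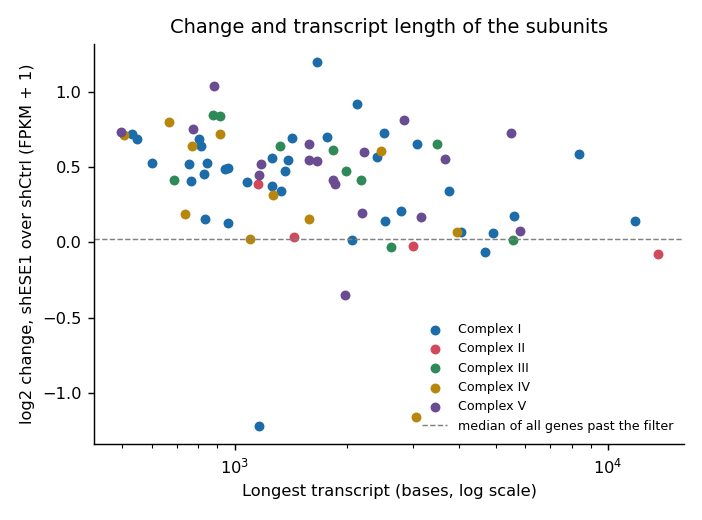
Change of each of the 80 subunits (vertical, log2 of FPKM plus 1, shESE1 over shCtrl) against the length of its longest transcript (horizontal, bases, log scale), coloured by complex, with the median of all genes as a dashed line. The Spearman correlation across the subunits was -0.38, and the genes furthest below 0, *NDUFA13* and *COX7A2L*, have longest transcripts of 1166 and 3056 bases.

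The shift of the group was present under every scaling tried, but its size was not fixed. The FPKM values of a library summed to 343000 in shCtrl and 285391 in shESE1, so rescaling each library to the same sum (TPM) raised the median of all genes to 0.27 and that of the subunits to 0.75. On that scale 11 subunits were at least 2-fold higher and 0 at least 2-fold lower, where the shares of all genes were 9.16% and 3.99%. The difference between the median of the subunits and the median of all genes was 0.49 as TPM and 0.46 on the deposited scale. Over all settings it lay between 0.29 and 0.49. With a filter of 5 FPKM the median of all genes was 0.15 and the difference was 0.34. In shCtrl the median level was 37.5 FPKM for the subunits and 4.94 FPKM for all genes past the main filter. Across the subunits the Spearman correlation of change with mean FPKM was 0.33. The part of expression level in the shift was not tested.

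**Figure D5:**
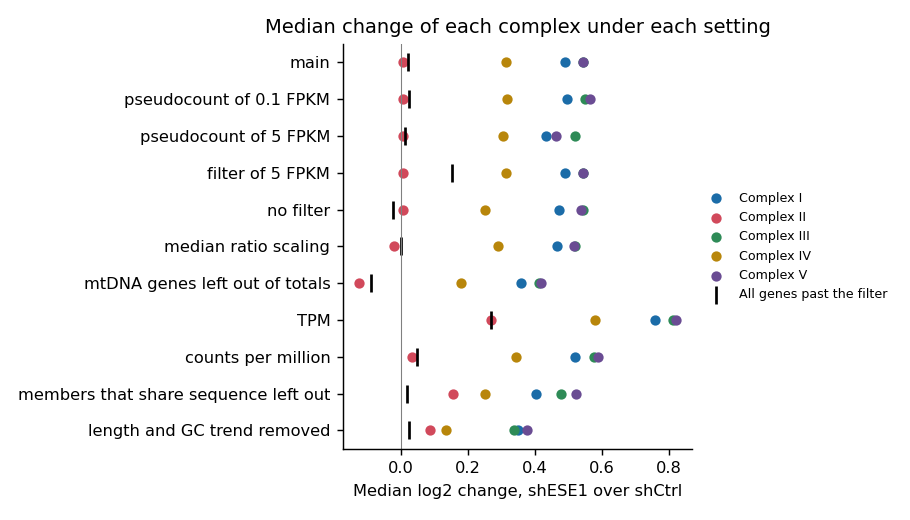
Median change of each complex (points, log2, shESE1 over shCtrl) under the main setting and each alternative, with the median of all genes past the filter as a black bar. Complexes I, III, IV and V lie to the right of the bar in every row, and complex II lies on either side of it.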

How the data were processed

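Poly(A) RNA of L3.6 cells was sequenced by the authors as 1 shCtrl and 1 shESE1 library, with a kit that marks strand. For each gene the authors deposited FPKM, in which fragments are divided by gene length and depth, and a raw whole-number count. A small constant that the authors deposited as FPKM for genes at 0 counts was set to 0. Named in the submitters' processing notes are fastp, HISAT2, StringTie, GRCh38 and mm10. Their versions and roles, and the counting program with its use of strand, are not given in the sources used. All identifiers are human, with GRCh38 positions.

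Members were found by symbol and grouped by complex. The main value was log2((shESE1 FPKM + 1)/(shCtrl FPKM + 1)) over genes that reached 1 FPKM in either library, with counts at 2-fold and 1.5-fold set beside the same over all 12520 such genes. Exact 95% Clopper-Pearson intervals of the share of counts cover counting error. Total counts were 56853971 and 60786475. No test was run, since 1 library per condition leaves no spread. Subunits were named as extremes, highest level, core or catalytic subunits and tissue-restricted isoforms of each complex, members past or near a fold threshold, members under the filter, and up to 3 genes of each list with the largest change. *AC011448*, *AC005943*, *AL133352*, *AC010323*, *MIR1307*, *POLRMT*, *TEFM*, *TFB2M* and *TFB1M* were named after their values were seen. The values of 1 gene are not reported here. Members and lists were chosen with earlier results of these data known.

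Sequence common to several genes was found by matching 100-base words, 1 every 10 bases, of GENCODE release 29 transcripts, and overlap came from its gene spans. Motifs were searched on both strands of RefSeq promoters. The calculation was tested on simulated data. Alternatives were other pseudocounts, filters, scalings and fold thresholds, and members that share sequence left out. Removal of a length and GC trend (lowess, span 0.3) and the sum of *NDUFA13* with its readthrough gene were chosen after seeing the data. Python 3.11.15 was used with numpy 2.4.6, scipy 1.17.1, pandas 2.3.3, statsmodels 0.14.6 and matplotlib 3.10.9.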

Additional observations from a re-analysis of the deposited data

How the results depend on the processing

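The median change of the subunits stayed above that of all genes under every alternative run. It was 0.48 as reported, 0.50 with a pseudocount of 0.1 FPKM, 0.43 with a pseudocount of 5 FPKM, 0.49 with a filter of 5 FPKM, 0.46 with no filter, 0.46 after median ratio scaling, 0.35 with totals that omit mitochondrial genes, 0.75 as TPM, 0.51 as CPM, 0.41 without members that share sequence and 0.32 after removal of the length and GC trend. The number of subunits at least 2-fold lower, 2 as reported, was 1 with a pseudocount of 5 FPKM, 0 as TPM, 1 without members that share sequence and 1 with *NDUFA13* summed with its readthrough gene. The number at least 2-fold higher, 2 as reported, was 1 with a pseudocount of 5 FPKM, 1 with mitochondrial genes left out, 11 as TPM, 0 without members that share sequence, 1 after removal of the trend and 27 at a threshold of 1.5-fold. *NDUFA13* turned to 0.19 when summed with its readthrough gene, by the construction of that sum. The cause of the other shifts was not tested. Of the named subunits, 6 values fell under 2-fold and 6 passed it under an alternative. No paired analysis was possible because each condition has 1 library, and no library could be left out for the same reason. Counting error was small at this depth, and the spread between cultures is unknown.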

Other observations

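Genes around the respiratory chain that the comparison did not cover were read in the same way. Of 13 genes of the tricarboxylic acid cycle, 11 were above 0 (84.6%, against 51.5% of all genes), with a median of 0.34. *DLST*, a subunit of the 2-oxoglutarate dehydrogenase complex, was at 16.6 FPKM in shCtrl and 33.5 FPKM in shESE1 (0.97), and *IDH3A*, a subunit of the NAD-dependent isocitrate dehydrogenase, changed by 0.58. *SUCLG2*, a subunit of succinyl-CoA synthetase, was below 0 at -0.18.

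Of 18 listed regulators of mitochondrial genes 17 were matched by symbol and 16 passed the filter. Their median was 0.16, and 9 were above 0 (56.25%), a share near the 51.5% of all genes. *TWNK*, the helicase that unwinds mtDNA for replication, was at 3.18 FPKM in shCtrl and 10.9 FPKM in shESE1, from 889 and 3295 counts. *SLIRP* and *LRPPRC*, whose proteins form a complex that keeps mitochondrial mRNAs stable, differed in opposite directions. *SLIRP* was at 15.0 FPKM and 29.3 FPKM (0.92), and *LRPPRC* was at 31.4 FPKM and 20.3 FPKM (-0.60). *TFAM*, which packages mtDNA and starts its transcription, was at 10.7 FPKM and 8.90 FPKM (-0.24). Other genes of the list for mtDNA expression did not all go the same way. *POLRMT* (0.36), *TEFM* (0.28) and *TFB2M* (0.19) were above 0, and *TFB1M* (-0.14) was below 0. *ESRRA*, a nuclear receptor that acts on respiratory genes, was at 27.7 FPKM and 15.5 FPKM (-0.80). These values have no replicate check.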
